A study of Mus musculus with 16 samples.

Results

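Collagen chain genes encode the polypeptides that assemble as trimers into collagens, the structural proteins of the extracellular matrix. They were taken here as every gene of the array whose only platform symbol was Col, a number, a and a number, which gave 42 of 18193 genes with a single symbol. These 42 genes had 82 probe sets in all. Each gene was read at the probe set with the highest mean over the arrays, and the other 40 probe sets, which belonged to the 27 genes with several, were kept for comparison. The other 15 genes had 1 probe set each.

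Fibrillar collagens, chiefly types I, III and V in lung, form the tensile fibres of the airway wall, vessel wall and pleura, while type IV forms the network of the basement membrane that alveolar epithelium and capillary endothelium share. Type VI makes beaded microfilaments, type VIII makes short-chain networks around vessels, and transmembrane collagens such as type XXV sit in the cell membrane. In the lung the fibrillar and type VI chains come mainly from fibroblasts, smooth muscle and mesothelium.

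The lungs were left lungs of male Balb/c mice at 15 weeks of age, from which total RNA was hybridised to Affymetrix mouse arrays. Second-hand smoke (SHS) was sidestream smoke with 10 mg/m3 of suspended particles. Exposure to it, or to filtered air, was for 5 h per day on 7 days per week, in utero, as adults, or both. The group AA had air in utero and as adults, AS had air in utero and SHS as adults, SA had SHS in utero and air as adults, and SS had SHS at both ages. All groups were of the same strain, sex and age, no genetic change is named, and the labels give neither litter nor batch.

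The design names 16 animals, 4 per group, and the titles call them biological replicates. AS replicates 3 and 4, and SS replicates 1 and 2, were however nearly identical: the ratio of their difference over variable probe sets to that over stable probe sets was 1.35 and 1.24, against 2.84 to 5.96 in the other 22 pairs. The mean of each such pair served as a single sample, so that AA and SA had 4 samples and AS and SS had 3. Over the stable probe sets, AS 3 and 4 differed from AS 1 and 2 by a root mean square of 0.21 to 0.26. Every other pair within a group stood at 0.06 to 0.13. The averaged AS sample thus stood apart also at probe sets that were stable in the other groups, and the cause was not tested. Values are the authors' normalised log2 values, with array medians of 6.90 to 6.93, and each series of values below runs in replicate order, so that the averaged AS sample comes last and the averaged SS sample first. The lung markers Sftpc (at least 15.01 in each sample) and Scgb1a1 (14.91 to 14.98), of alveolar type II and club cells, were near the top of the scale, and the endothelial gene Cdh5 lay between 11.66 and 11.91. In whole lung, fewer cells of a type and less RNA per cell cannot be told apart. The number of arrays, not a count, limits the precision of each value.

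The 42 genes comprised 11 fibrillar, 9 fibril-associated, 6 basement membrane, 5 beaded-filament, 4 transmembrane, 3 short-chain, 2 multiplexin and 1 anchoring-fibril chain, with Col26a1 in none of these classes. Their means ran from 2.99 to 13.08 on the log2 scale. At 24 genes the mean was at or above the median of all probe sets (6.92), at 18 it was below, and at 7 it was under 5. Probe sets differ in how well they bind, so these figures describe how bright each probe set was and rank no chain above another.

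**Figure D1:**
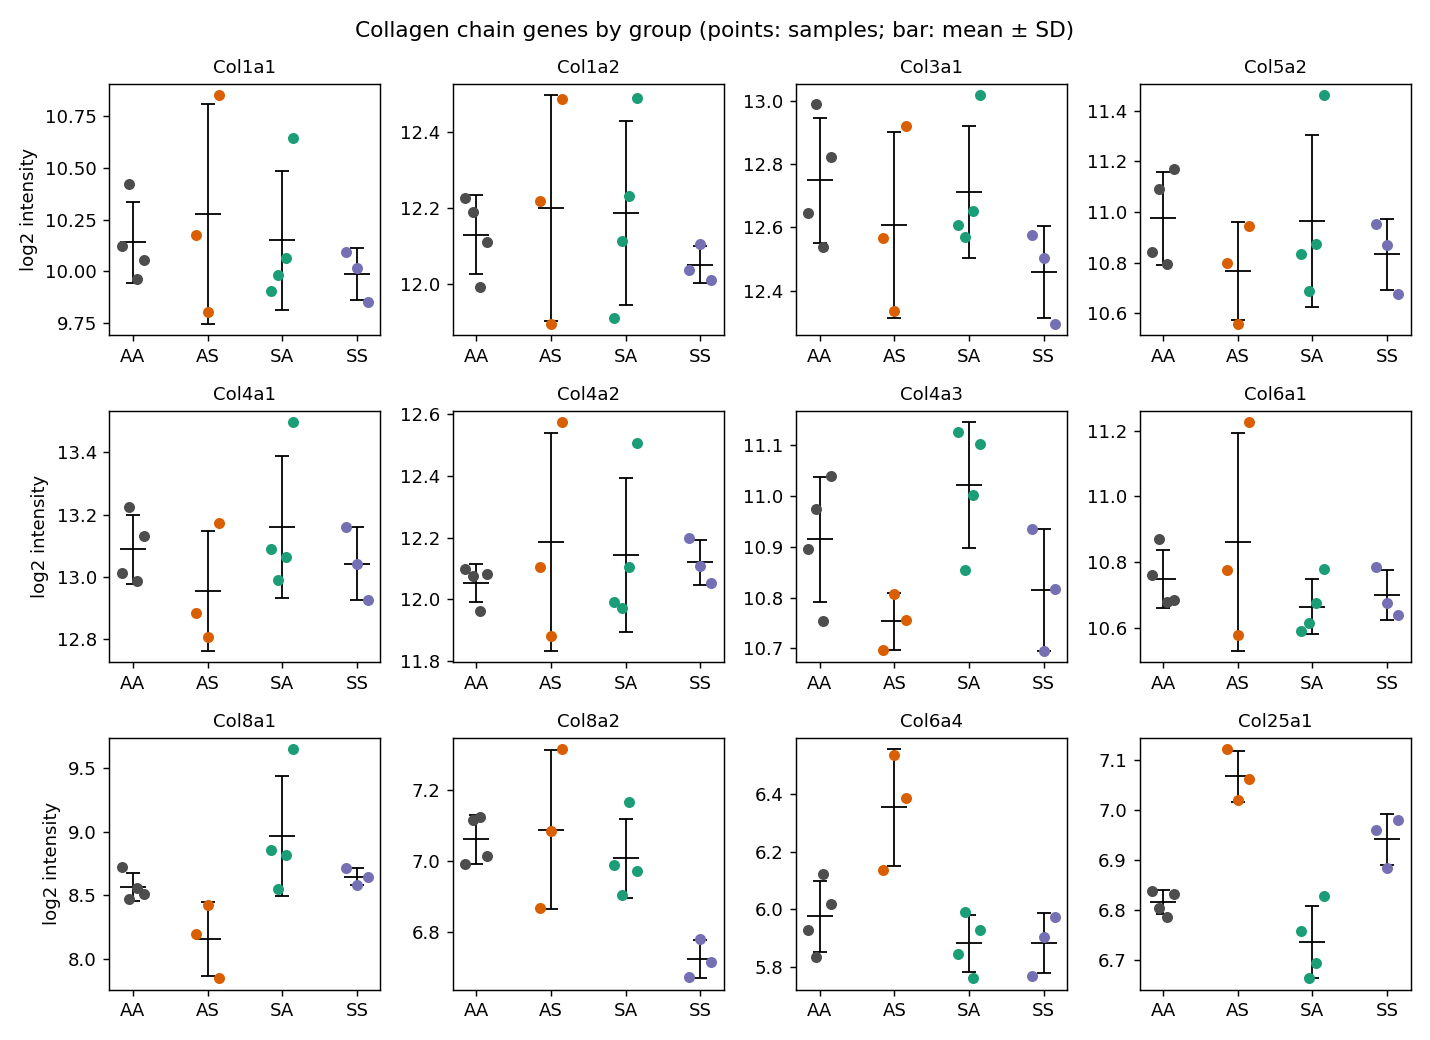
Normalised log2 value of 12 collagen genes by group, 1 panel and axis per gene; points are samples and bars the group mean ± SD. The groups overlap at Col1a1, Col1a2, Col3a1 and Col4a1, AS stands highest at Col6a4, SS lowest at Col8a2, and AS and SS lie above AA and SA at Col25a1.

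Promoter windows were shown for the genes on which the results below turn: Col1a2, whose probe sets disagreed; Col3a1, which varied with the type I chains; Col25a1, the collagen gene that passed the test for adult SHS; and Col4a2, which varied with Col4a1. The windows are RefSeq's for GRCm38.p6, 250 bases before to 50 after a listed start, 5′ to 3′ on the gene's strand, and 36 windows matched 33 of the 42 genes. At Col25a1 and Col4a1 that start lies inside the gene's span. The Col25a1 span begins at base 130180358, and that of Col4a1, on the - strand, ends at base 11312889. In the first 3 windows capitals mark the CCAAT motif, the box bound by the factor NF-Y, read on both strands (CCAAT or ATTGG). In the Col4a2 window capitals mark the 78 bases that also lie in the Col4a1 window, on the other strand.
Col1a2 window, chr6:4505368-4505667, + strand: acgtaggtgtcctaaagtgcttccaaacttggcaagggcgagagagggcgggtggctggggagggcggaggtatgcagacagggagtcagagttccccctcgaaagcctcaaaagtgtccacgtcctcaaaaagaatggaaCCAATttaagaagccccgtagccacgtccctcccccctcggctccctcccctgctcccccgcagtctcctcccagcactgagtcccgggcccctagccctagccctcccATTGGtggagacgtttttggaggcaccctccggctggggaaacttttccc
Col3a1 window, chr1:45311288-45311587, + strand: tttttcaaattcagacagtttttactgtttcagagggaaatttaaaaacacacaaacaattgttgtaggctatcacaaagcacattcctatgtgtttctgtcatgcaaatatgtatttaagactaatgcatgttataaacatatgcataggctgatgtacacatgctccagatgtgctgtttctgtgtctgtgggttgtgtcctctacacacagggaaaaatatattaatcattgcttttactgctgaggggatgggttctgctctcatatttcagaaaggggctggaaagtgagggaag
Col25a1 window, chr3:130180595-130180894, + strand: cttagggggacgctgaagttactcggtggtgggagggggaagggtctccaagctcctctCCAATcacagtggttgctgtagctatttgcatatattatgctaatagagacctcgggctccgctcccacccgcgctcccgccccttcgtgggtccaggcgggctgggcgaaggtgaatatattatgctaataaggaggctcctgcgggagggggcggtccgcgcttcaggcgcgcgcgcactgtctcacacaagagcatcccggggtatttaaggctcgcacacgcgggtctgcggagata
Col4a2 window, chr8:11312555-11312854, + strand: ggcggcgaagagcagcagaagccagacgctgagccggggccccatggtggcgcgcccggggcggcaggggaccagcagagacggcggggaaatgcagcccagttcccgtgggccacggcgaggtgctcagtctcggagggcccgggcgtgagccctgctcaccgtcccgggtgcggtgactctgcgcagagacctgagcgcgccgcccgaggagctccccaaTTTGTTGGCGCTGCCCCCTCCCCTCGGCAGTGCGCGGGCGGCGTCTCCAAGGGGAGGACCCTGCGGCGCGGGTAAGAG

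The Col1a2 window held 2 CCAAT motifs, 1 on each strand, and had a GC content of 61.0%. The Col3a1 window held none, with a GC content of 37.7%, and the Col25a1 window held 1, with a GC content of 60.0%. Col4a1 and Col4a2 are read outwards from a common stretch: the Col4a1 window (chr8:11312777-11313076, - strand) and the Col4a2 window overlapped from base 11312777 to base 11312854, with GC contents of 74.0% and 73.7%. Over all collagen windows, CCAAT was found in 13 of 36 (36.1%), against 37.4% of 32851 RefSeq windows of the same length. The TATA motif (letters TATAAA) was found on either strand in 13.9% of collagen windows and 13.6% of all windows. GGGCGG, a GC box, was found on either strand in 22 of 36 collagen windows (61.1%) against 35.7% of all windows. The counts are of windows, not genes. Where windows overlap, as those of Col4a1 and Col4a2 do, a match in the shared stretch counts for each. These are matches of letters, not measured binding.

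The first question was whether adult SHS changed collagen gene levels in lungs that had air in utero (AS minus AA) and in lungs that had SHS in utero (SS minus SA). With limma over all 45037 probe sets and Benjamini-Hochberg adjustment, 0 of 42 collagen genes passed an adjusted p of 0.05 for AS minus AA, where 1.55% of all probe sets passed, and 0 of 42 for SS minus SA, where 1.64% passed. At an unadjusted p under 0.05, 3 were higher and 2 lower in AS than in AA, against 20.3% of all probe sets in either direction. The same threshold gave 1 higher and 4 lower in SS than in SA, against 14.5% of all probe sets. AS and AA did not overlap at 9 genes (7 higher and 2 lower in AS) against 16.3% of all probe sets, and SS and SA did not overlap at 6 (3 higher and 3 lower) against 16.7%.

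The median difference over the 42 genes was 0.07 for AS minus AA, where that of all probe sets was 0.02, and -0.03 for SS minus SA, where that of all probe sets was 0.01. The first median was -0.04 without the averaged AS sample, so its direction rested on that sample. The 2 comparisons share no sample. Across the genes their differences had the same sign at 27 of 42 (15 higher in both, 12 lower in both), with Pearson's r of 0.65 and Spearman's rho of 0.65. Genes are not independent replicates, and no test was made of this relation.

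The mean of the differences AS minus AA and SS minus SA, called the adult SHS effect below, has a smaller error than either alone. For it 1 of 42 collagen genes passed, Col25a1, which was higher, while 5.95% of all probe sets passed (2.82% higher and 3.13% lower). At an unadjusted p under 0.05, 6 were higher and 5 lower, against 25% of all probe sets. The median effect over the genes was 0.00, against 0.01 over all probe sets. The 95% confidence intervals, without adjustment for the number of genes, had half-widths of 0.09 to 0.32 on the log2 scale. At 41 of 42 genes they lay within a 1.5-fold change either way, and the exception was Col8a1. For AS minus AA alone, the interval reached past 1.5-fold at Col1a1, Col6a4 and Col8a1, and for SS minus SA at Col12a1, Col17a1, Col1a1 and Col8a1.

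**Figure D2:**
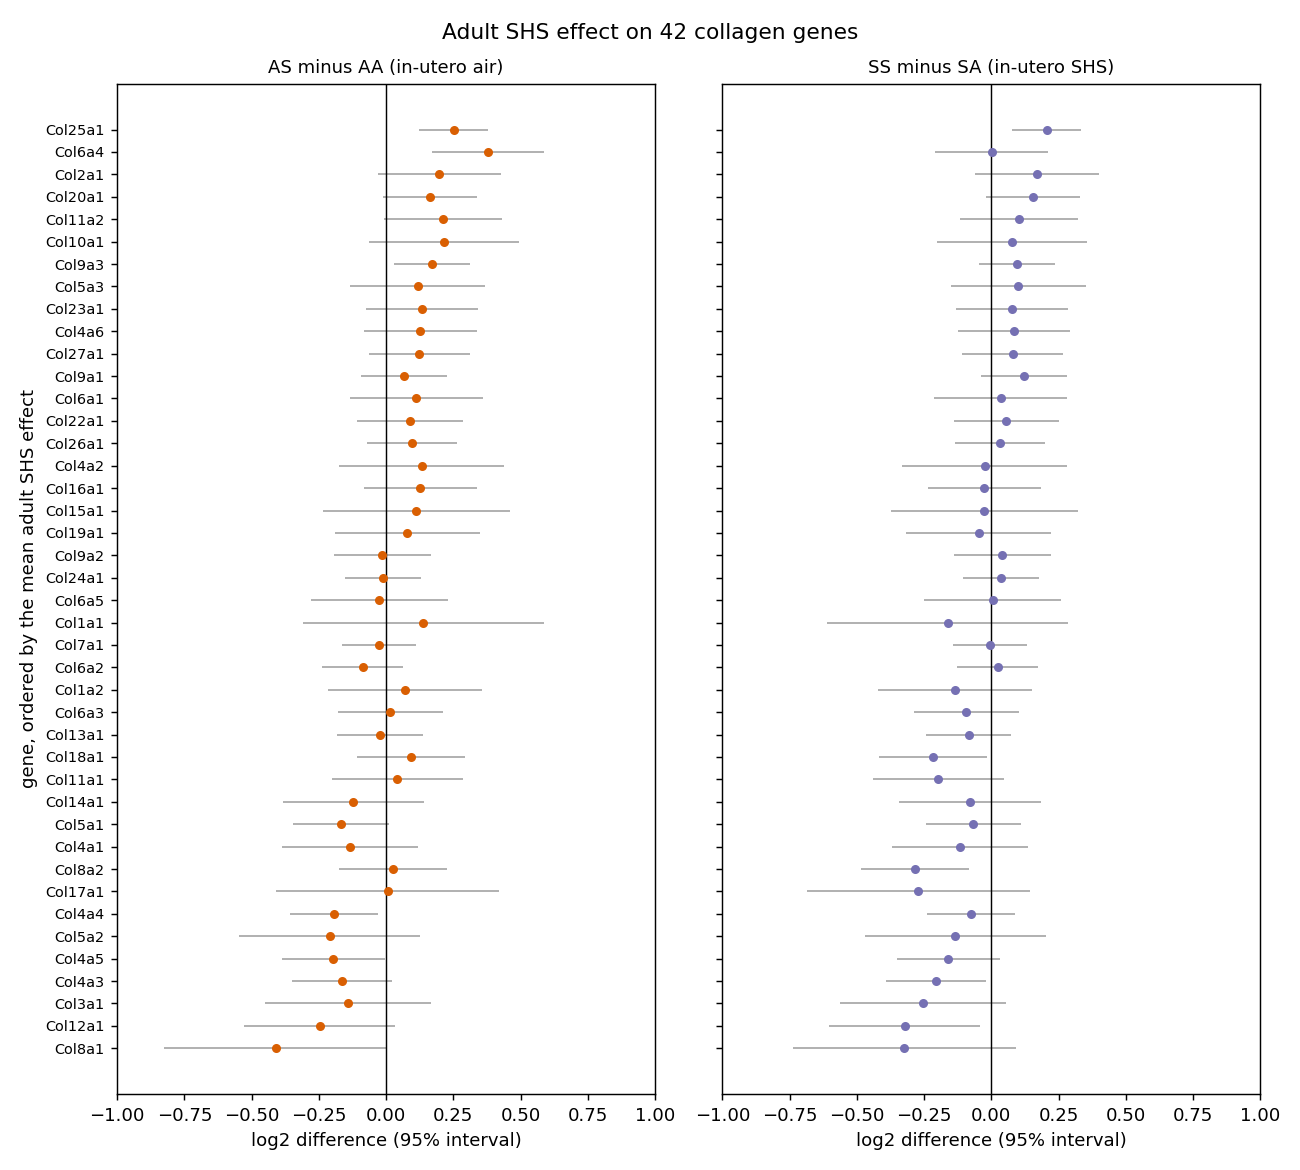
Log2 difference of each of the 42 collagen genes with its 95% confidence interval, for AS minus AA (left) and SS minus SA (right), ordered by the mean of both; the vertical line is 0. Col25a1 is at the top of the order, at 0.25 and 0.21, and Col8a1 at the bottom, at -0.41 and -0.32, and most intervals reach across 0.

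Among fibrillar chains, 0 of 11 passed for the adult SHS effect, with a median of -0.01. Col1a1, the alpha 1 chain of type I, read 10.12, 10.42, 9.96 and 10.05 in AA and 10.18, 9.80 and 10.85 in AS. It read 9.91, 9.98, 10.06 and 10.64 in SA and 10.09, 10.02 and 9.85 in SS. The groups overlapped, with the averaged AS sample and SA 4 highest. AS minus AA was 0.14, and was -0.15 without the averaged AS sample and 0.37 without AS 2. SS minus SA was -0.16, and the adult SHS effect was -0.01 ± 0.15 (SE).

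Col3a1, the chain of type III collagen, read 12.64, 12.99, 12.54 and 12.82 in AA, 12.57, 12.33 and 12.92 in AS, 12.61, 12.57, 12.65 and 13.02 in SA, and 12.58, 12.50 and 12.29 in SS. All groups overlapped. The adult SHS effect was -0.20 ± 0.10 (SE, limma adjusted p = 0.243), from -0.14 after air and -0.25 after SHS in utero. Col5a1 and Col5a2 make type V, which sets the diameter of type I fibrils, and their adult SHS effects were -0.12 and -0.17. Col5a1 ran from 9.10 to 9.25 in AA and from 8.87 to 9.09 in AS, without overlap, but its difference of -0.17 did not pass the test. Col2a1, the cartilage chain, ran from 5.77 to 6.17 in AA and from 6.20 to 6.30 in AS, again without overlap, and its adult SHS effect of 0.18 ± 0.08 had an adjusted p of 0.151 by limma.

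For Col1a2, the alpha 2 chain of type I, the answer depended on the probe set. The brightest, 1450857_a_at, read 12.23, 12.19, 11.99 and 12.11 in AA, 12.22, 11.89 and 12.49 in AS, 11.91, 12.11, 12.23 and 12.49 in SA, and 12.04, 12.10 and 12.01 in SS. A second, 1423110_at, read 10.23, 10.19, 10.04 and 10.21 in AA, 10.17, 9.91 and 10.09 in AS, 10.04, 10.09, 10.18 and 10.74 in SA, and 10.17, 10.07 and 10.01 in SS. At both of these the groups overlapped, and the adult SHS effects were -0.03 ± 0.09 and -0.15 ± 0.09 (SE).

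The dimmest Col1a2 probe set, 1446326_at, fell. It read 5.84, 6.37, 5.77 and 6.57 in AA against 4.76, 4.69 and 5.22 in AS, and 6.29, 6.33, 6.87 and 6.85 in SA against 5.71, 5.38 and 5.28 in SS. Every lung with adult SHS lay below every lung with adult air. AS minus AA was -1.25 ± 0.21 (SE, limma adjusted p = 0.0115) and SS minus SA was -1.13 ± 0.21 (adjusted p = 0.0128). The adult SHS effect was -1.19 ± 0.15 (adjusted p = 0.00118) and passed in all 21 alternatives tried, from -1.27 to -1.12 with a sample left out. SS minus SA did not pass without SS 3 (adjusted p = 0.0815) or SS 4 (0.062), and AS minus AA did not pass when AA and AS alone were fitted (0.0805). The in-utero comparisons of this probe set did not pass: SA minus AA was 0.45 (adjusted p = 0.775) and SS minus AS was 0.57 (0.278). Its values lie below the median of the array, at which no detection call was given here. Where in the Col1a2 transcript this probe set binds could not be checked.

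**Figure D3:**
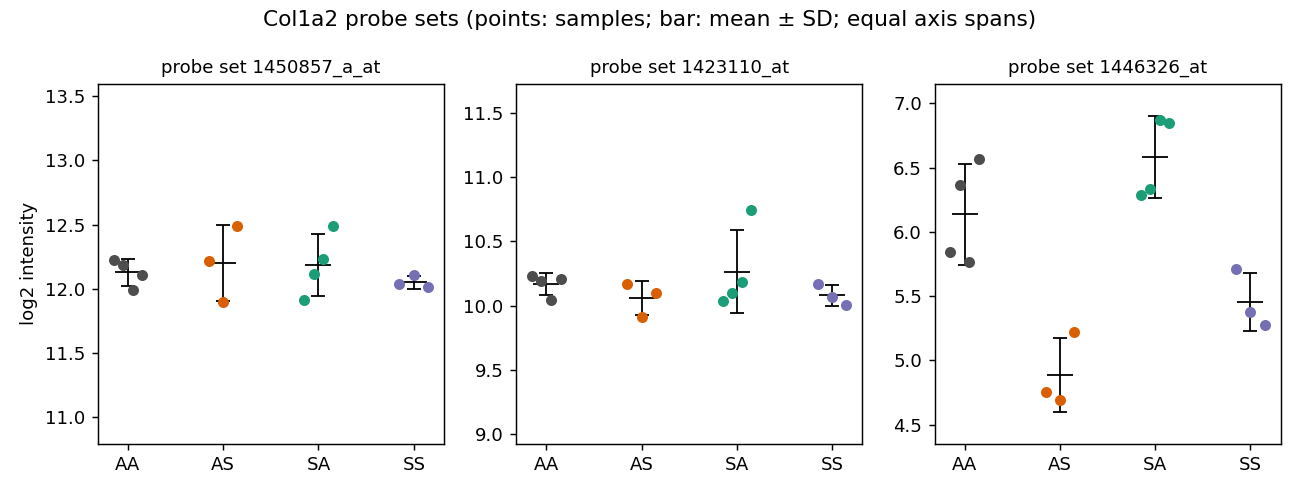
Log2 values of the 3 Col1a2 probe sets by group; points are samples, bars the group mean ± SD, and the 3 axes span the same number of log2 units. The groups overlap at 1450857_a_at and 1423110_at, while at 1446326_at the AS and SS samples (4.69 to 5.71) lie below the AA and SA samples (5.77 to 6.87).

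Such disagreement within a gene was measured for each of the 40 other probe sets as its adult SHS effect minus that of the gene's brightest, with an exact two-sided permutation test over samples within each in-utero arm (1225 arrangements), a comparison added after the values had been seen. With Benjamini-Hochberg adjustment over the 40, the difference passed at 5, and at 11 the unadjusted p was under 0.05. The largest was Col1a2 1446326_at, at -1.16 (exact permutation p = 0.000816, the smallest the test can give, adjusted p = 0.0163).

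At Col3a1 the dimmer probe set 1427884_at read 9.92, 10.22, 9.71 and 10.23 in AA, 9.69, 9.23 and 9.69 in AS, 9.93, 9.90, 9.82 and 10.49 in SA, and 9.57, 9.55 and 9.39 in SS. All of AS and SS lay below all of AA and SA. It fell by 0.51 ± 0.12 with adult SHS (limma adjusted p = 0.0229), a call that was lost without SS 3 (0.0529) or SS 4 (0.056). It stood -0.31 from the brightest Col3a1 probe set (exact permutation, adjusted p = 0.0163), and where it binds in the transcript could not be checked. The remaining 3 went the other way: 1418440_at stood 0.40 above the brightest Col8a1 probe set (adjusted p = 0.0218, exact permutation), 1427391_a_at 0.37 above that of Col12a1 (0.0457) and 1426348_at 0.13 above that of Col4a1 (0.0457). At those 3 the brightest probe set had the lower adult SHS effect and the other was near 0: 0.03 at Col8a1, 0.09 at Col12a1 and 0.01 at Col4a1.

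In the fit across all probe sets, 5 of the 40 passed for the adult SHS effect, 1 higher and 4 lower, against 2.82% higher and 3.13% lower over all probe sets. Besides Col1a2 and Col3a1 these were Col5a2 1450625_at at -0.31 ± 0.07 (limma adjusted p = 0.0262), Col4a3 1450224_at at -0.24 ± 0.07 (0.0487) and Col26a1 1458189_at at 0.19 ± 0.05 (0.0306). Their genes' brightest probe sets had effects of -0.17, -0.18 and 0.06. The Col5a2 call was lost without AA 2, the averaged AS sample, SA 3, the averaged SS sample or SS 4, with adjusted p up to 0.0669. Of the samples left out in turn, the Col4a3 call held only without AA 3, SA 2 or the averaged SS sample (up to 0.123). The Col26a1 call was lost without AA 2, AA 4, AS 1, SA 1, SS 3 or SS 4 (up to 0.0821). Over all alternatives it passed in 12 of 20, with limma adjusted p up to 0.116, and this probe set was dim, with a mean of 3.65. For AS minus AA and for SS minus SA alone, 1 of the 40 passed, against 1.55% and 1.64% of all probe sets, and it was Col1a2 1446326_at both times.

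**Figure D4:**
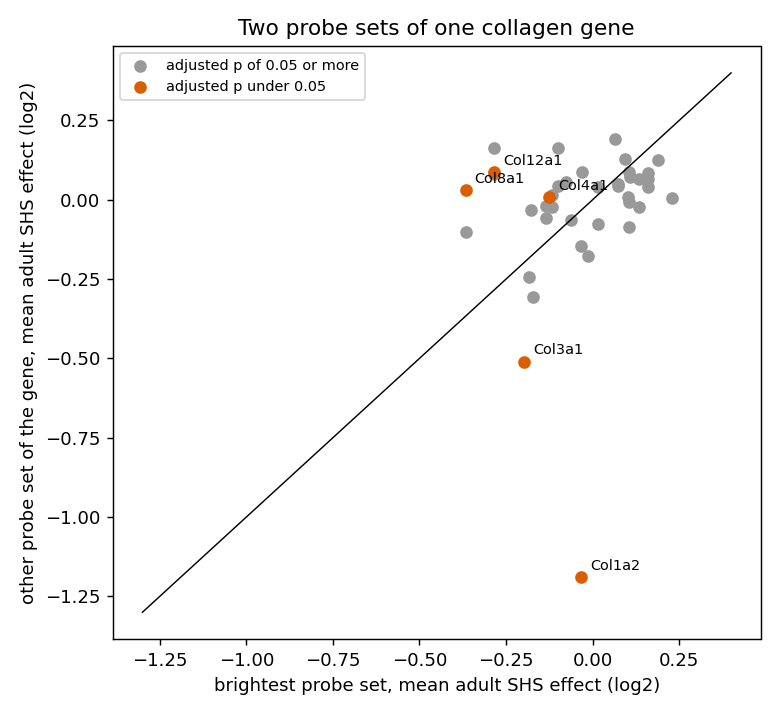
Adult SHS effect (log2) at the brightest probe set of a collagen gene (horizontal axis) against that at each of its other probe sets (vertical axis), 40 points; the line marks equal effects and orange marks the 5 whose difference passed. Col1a2 1446326_at lies alone at -1.19 on the vertical axis.

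Among transmembrane collagens, Col25a1, a neuronal collagen whose shed ectodomain is known from amyloid plaques, rose with adult SHS. It read 6.84, 6.80, 6.79 and 6.83 in AA (6.82 ± 0.02, SD, n = 4) and 7.12, 7.02 and 7.06 in AS (7.07 ± 0.05, SD, n = 3). It read 6.76, 6.66, 6.69 and 6.83 in SA (6.74 ± 0.07, SD, n = 4) and 6.96, 6.88 and 6.98 in SS (6.94 ± 0.05, SD, n = 3). Every lung with adult SHS was above every lung with adult air. The adult SHS effect was 0.23 ± 0.04 (SE, limma adjusted p = 0.00903) and passed in all 21 alternatives, from 0.22 to 0.24 with a sample left out. Neither difference passed alone: AS minus AA was 0.25 (adjusted p = 0.0511) and SS minus SA was 0.21 (0.115). The other Col25a1 probe set, 1438540_at, with a mean of 4.05, had an effect of 0.01. The brighter probe set had a mean of 6.89, just under the array median of 6.92, and no detection call was used. Col17a1, the hemidesmosome collagen of basal epithelial cells, was 0.01 for AS minus AA and -0.27 for SS minus SA, with values from 5.57 to 6.58 in AA alone.

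Among short-chain collagens, Col8a1 had the largest fitted falls but also the widest spread. It read 8.72, 8.47, 8.56 and 8.51 in AA, 8.19, 8.42 and 7.85 in AS, 8.86, 8.55, 8.82 and 9.65 in SA, and 8.71, 8.58 and 8.65 in SS. SA 4 stood far above the other SA lungs, and the averaged AS sample, at 7.85, was the lowest of all samples. AS minus AA was -0.41 ± 0.19 (SE, limma adjusted p = 0.25), without overlap between the groups, SS minus SA was -0.32, and the adult SHS effect was -0.37 ± 0.14 (0.117). SA minus AA was 0.41, and was 0.18 without SA 4. Its partner chain Col8a2 moved otherwise: it read 6.99, 7.12, 7.13 and 7.01 in AA, 6.87, 7.08 and 7.31 in AS, 6.99, 6.90, 7.17 and 6.97 in SA, and 6.67, 6.78 and 6.71 in SS. The SS lungs lay below all 11 others. SS was -0.37 against AS (adjusted p = 0.111), -0.28 against SA (0.166) and -0.34 against AA (0.169), and no comparison passed. Col10a1, the chain of hypertrophic cartilage, had an AS minus AA difference of 0.22 at values of 4.59 to 5.12.

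Among fibril-associated chains, which decorate the surface of fibrils, 0 of 9 passed for the adult SHS effect. Col12a1 read 8.85, 9.43, 9.03 and 9.34 in AA, 8.87, 9.08 and 8.80 in AS, 9.41, 9.22, 9.47 and 9.60 in SA, and 9.16, 8.94 and 9.21 in SS. SS lay below SA without overlap, while AS and AA overlapped. Its differences were -0.25 for AS minus AA and -0.32 for SS minus SA, and the adult SHS effect was -0.28 ± 0.09 (limma adjusted p = 0.08). Its other probe set 1427391_a_at gave 0.09. Col20a1 had 0.16 in each of these comparisons and Col9a3 had an adult SHS effect of 0.13, neither past the threshold.

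Of the 6 basement membrane chains, 0 passed for the adult SHS effect and 4 had effects below 0, with a median of -0.13. Col4a1 and Col4a2 form the common type IV network, and Col4a1 read 13.01, 13.22, 12.99 and 13.13 in AA, 12.88, 12.81 and 13.17 in AS, 13.09, 12.99, 13.06 and 13.50 in SA, and 13.16, 13.04 and 12.93 in SS. Col4a2 read 12.10, 12.08, 11.96 and 12.08 in AA, 12.10, 11.88 and 12.57 in AS, 11.99, 11.97, 12.11 and 12.51 in SA, and 12.20, 12.11 and 12.05 in SS. At both genes the groups overlapped, and SA 4 and the averaged AS sample were at or near the top. The adult SHS effects were -0.13 ± 0.08 and 0.05 ± 0.10 (SE). Col4a3, Col4a4 and Col4a5 make the network of the mature alveolar and glomerular membrane, and their effects were -0.18 (limma adjusted p = 0.0848), -0.13 (0.143) and -0.18 (0.104).

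Of the 5 beaded-filament chains, Col6a1, Col6a2 and Col6a3 had adult SHS effects of 0.07, -0.03 and -0.04. Col6a4, whose human counterpart is a pseudogene, was highest in AS: it read 5.93, 5.83, 6.12 and 6.02 in AA, 6.14, 6.54 and 6.39 in AS, 5.84, 5.99, 5.76 and 5.93 in SA, and 5.77, 5.90 and 5.97 in SS. AS lay above the other groups without overlap. AS minus AA was 0.38 ± 0.10 (SE, limma adjusted p = 0.0635), and SS minus SA was 0.00. The multiplexins Col15a1 and Col18a1, perivascular basement membrane collagens that can release anti-angiogenic fragments, had effects of 0.04 and -0.06.

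The next question was whether in-utero SHS changed collagen gene levels. In adults kept in air (SA minus AA), 0 of 42 collagen genes passed, as did 0% of all probe sets, and at an unadjusted p under 0.05 there were 2 higher and 0 lower against 6.23% of all probe sets. No collagen gene was without overlap between SA and AA, against 3.68% of all probe sets. The largest differences were 0.41 at Col8a1, 0.26 at Col12a1 and 0.18 at Col4a5, and -0.13 at Col20a1, -0.11 at Col5a1 and -0.11 at Col6a2. The 95% intervals lay within 1.5-fold at 41 of 42 genes, all but Col8a1.

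In adults exposed to SHS (SS minus AS), 1 of 42 passed with limma, Col6a4, against 0.968% of all probe sets. It was lower in SS than in AS by -0.47 ± 0.11 (SE, adjusted p = 0.0476). This call stood just inside the threshold and passed in 5 of 22 alternatives, with adjusted p from 0.0048 to 0.193. Of the samples left out in turn, it passed without AA 2, AA 3 or AS 1 and was lost without any other, at differences of -0.58 to -0.38. Its other probe set, 1445470_at, gave -0.04. This difference and AS minus AA rest on the same 3 AS samples. At an unadjusted p under 0.05 there were 3 collagen genes higher and 4 lower, against 13.6% of all probe sets, and SS and AS did not overlap at 8 (2 higher and 6 lower) against 18.6%. The largest other differences were 0.49 at Col8a1 (adjusted p = 0.312), 0.21 at Col4a5, 0.20 at Col4a4, -0.37 at Col8a2 and -0.29 at Col1a1 (0.593). The median over the 42 genes was -0.07, against -0.01 over all probe sets.

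Over both adult exposures, the mean in-utero effect passed at 0 of 42 with limma, against 0.284% of all probe sets, with 4 higher and 5 lower at an unadjusted p under 0.05 against 11.9%. The largest were 0.45 ± 0.14 at Col8a1 (adjusted p = 0.197), which was 0.34 without SA 4, 0.22 at Col12a1 and 0.20 at Col4a5, and -0.28 ± 0.07 at Col6a4 (0.11), -0.21 at Col8a2 and -0.15 at Col17a1. The brightest Col8a1 probe set had means of 8.56, 8.15, 8.97 and 8.65 in AA, AS, SA and SS. In the same order 1418440_at had 7.04, 7.15, 7.28 and 7.23, and 1418441_at had 5.80, 5.77, 6.08 and 5.90. At those dimmer Col8a1 probe sets AS and SS stood closer together.

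Lungs with both exposures were set against lungs with neither (SS minus AA). By limma 0 of 42 collagen genes passed, against 0.4% of all probe sets, and at an unadjusted p under 0.05 there were 0 higher and 2 lower against 10.3%. Col25a1 (0.13) and Col8a2 (-0.34) were the 2 genes without overlap, against 14.1% of all probe sets. Other differences among the largest were 0.14 at Col2a1, 0.09 at Col10a1, -0.29 at Col3a1 (adjusted p = 0.523) and -0.28 at Col17a1.

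Whether the adult effect differed with the in-utero exposure was tested by the interaction, SS minus SA less AS minus AA. By limma 0 of 42 passed, against 0.131% of all probe sets, with 0 higher and 3 lower at an unadjusted p under 0.05 against 9.11%. Those 3 were Col6a4 at -0.38 ± 0.14 (adjusted p = 0.394), Col8a2 at -0.31 (0.49) and Col18a1 at -0.31 (0.494). The largest above 0 were Col4a4 at 0.12, Col6a2 at 0.11 and Col5a1 at 0.10. The dim Col1a2 probe set did not pass either. At 33 of 42 genes the interval of the interaction lay within 1.5-fold.

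Chains that assemble together were compared over the 14 samples by the deviation of each value from its group mean. The brightest Col1a2 probe set was likewise compared with each other Col1a2 probe set. This made 11 pairs in all, adjusted together, with a two-sided permutation test within groups (100000 resamples). Col1a1 with Col1a2 gave Pearson's r of 0.906 (adjusted p = 0.0072) and Spearman's rho of 0.925 (adjusted p = 0.0040), and Col1a1 with Col3a1 gave 0.938 (0.0072) and 0.917 (0.0042). Col4a1 with Col4a2 gave 0.893 (0.0072) and 0.829 (0.0095). Col5a1 with Col5a2 gave 0.684 (0.0149) and 0.719 (0.0261). In these pairs the deviations went together over the 14 samples. Pairs of unrelated probe sets were not compared, so whether this is particular to partner chains was not tested.

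The averaged AS sample and SA 4 carried part of this. Without them r was 0.729 for Col1a1 with Col1a2 (permutation, adjusted p = 0.0949), 0.874 for Col1a1 with Col3a1 (0.0358) and 0.604 for Col4a1 with Col4a2 (0.0997). Without AS 2 and SS 4, the 2 lungs farthest from the median of Col5a1, r was 0.674 for Col5a1 with Col5a2 (0.0997). For Col1a1 with Col3a1, rho on 12 samples was 0.839 (0.0651), so by r this pair alone of the 4 passed and by rho it did not.

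The type VI chains gave r of 0.492 for Col6a1 with Col6a2 (permutation, adjusted p = 0.199; rho 0.552, 0.118) and 0.783 for Col6a1 with Col6a3 (0.0475; rho 0.622, 0.118). Without AS 2 and the averaged AS sample these were 0.850 and 0.885 (0.0358 each), with rho of 0.699 and 0.741 that did not pass (0.0651 each). At 3 pairs no relation passed: Col4a3 with Col4a4 gave 0.294 (0.454; rho 0.226, 0.481), Col9a1 with Col9a2 gave 0.220 (0.526; rho 0.275, 0.428) and Col8a1 with Col8a2 gave -0.275 (0.497; rho -0.354, 0.370). Without their 2 farthest samples r was -0.007, -0.066 and -0.605. The spans of Col4a3 (chr1:82586921-82722059) and Col4a4 (chr1:82448419-82587034) overlap, as those of Col4a1 and Col4a2 do. Whether a shared start region bears on how partner chains vary was not tested.

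Within Col1a2, the brightest probe set gave r of 0.771 with 1423110_at (permutation, adjusted p = 0.0149; rho 0.719, 0.0324) and 0.587 with 1446326_at (0.0815; rho 0.556, 0.118). Without AS 2 and SA 4 these were 0.487 and 0.526 (0.209 each). All values of a pair come from the same arrays.

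**Figure D5:**
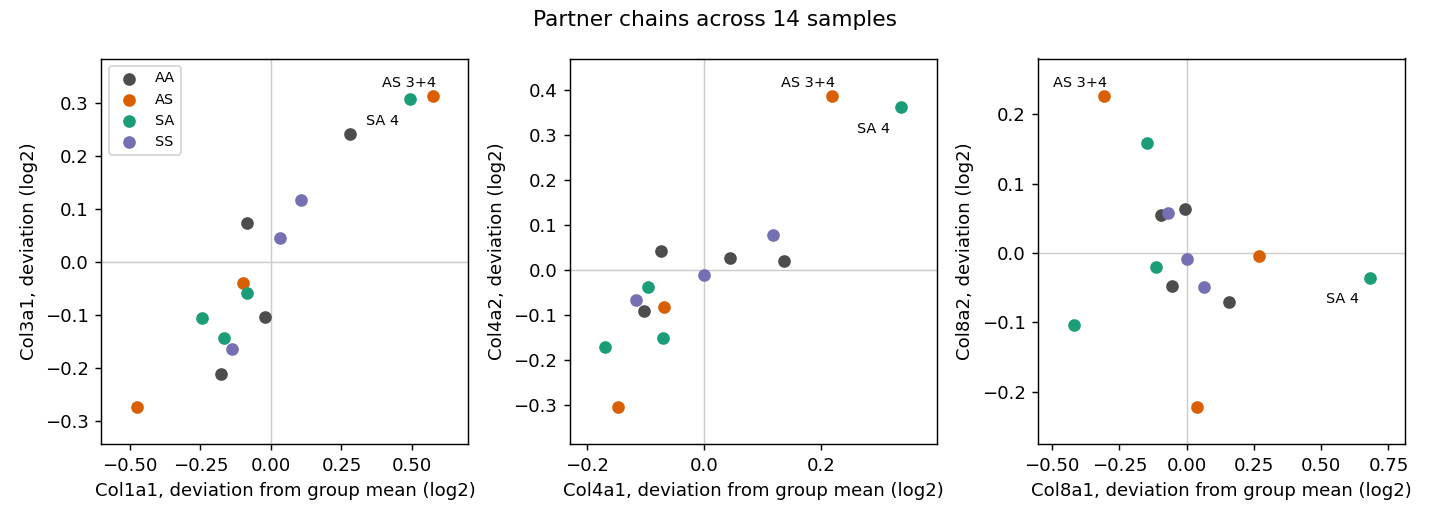
Deviation from the group mean (log2) of Col3a1 against Col1a1, of Col4a2 against Col4a1 and of Col8a2 against Col8a1, 1 point per sample, coloured by group. The averaged AS sample (marked AS 3+4) and SA 4 lie at the upper right of the first 2 panels (r of 0.938 and 0.893), while the third has no such line (r of -0.275).

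Genes that make, process, degrade and bind collagen were counted for the adult SHS effect, with limma and adjustment over all probe sets, of which 5.95% passed. Of 17 measured genes for folding and modification of the chains, 0 passed (median 0.04), with P4ha3 at -0.15 and P4ha2 at 0.13. Of 11 for processing and cross-linking, 1 passed: Bmp1, the protease that removes the C-propeptide of fibrillar procollagens, was higher by 0.32 ± 0.09 (SE, adjusted p = 0.041). The Bmp1 call passed in 9 of 21 alternatives, and of the samples left out in turn it passed only without AS 1, SA 4 or SS 4. For Bmp1 neither AS minus AA nor SS minus SA passed alone. Its AS minus AA difference, 0.40 to 0.58 with a sample left out, stood above the mean effect, and SS minus SA stood below it. Of 10 for turnover 0 passed, with the collagenase Mmp8 at 0.54 (0.111) and the gelatinase Mmp9 at -0.25. Of 8 receptors 0 passed, with Ddr2 at -0.14 and Itga1 at -0.13. Of 6 collagen-binding proteoglycans 0 passed, with Lum and Fmod at -0.23.

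Markers of cells that make collagen were set beside these values, again with 5.95% of all probe sets passing for the adult SHS effect. Of 10 fibroblast markers 1 passed: Tcf21, a transcription factor of lipofibroblasts, fell by 0.30 with adult SHS (limma adjusted p = 0.010), while the median of the list was -0.05. For SS minus SA, Tcf21 was -0.43 (0.013), lost without SS 3 (0.11), and for SS minus AA it was -0.45 (0.030), lost without AA 1, AA 2, SS 3 or SS 4 (0.0824 to 0.198). For AS minus AA, Tcf21 did not pass. Of 7 mesothelial markers 1 passed: Lrrn4 fell by 0.47 (0.0024) and the list's median was -0.12. Lrrn4 was also lower in AS than in AA, at -0.60 (0.010), a call lost when AA and AS alone were fitted (0.0824). It was lower in SS than in AA, at -0.57 (0.021), lost without AA 1, AA 2 or any one SS sample (0.0563 to 0.142), and SS minus SA did not pass (-0.35, 0.0988). Of 10 smooth muscle and pericyte markers 0 passed (median -0.02), with Tagln at 0.25 and Postn at -0.12. Of 8 endothelial markers 0 passed (median 0.01), with Kdr at -0.18 and Cldn5 at 0.17. Of 9 cartilage markers 0 passed (median 0.11), with Chad at 0.19 and Sox9 at 0.16.

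List means in each sample were taken relative to AA. Over all collagen genes it ran from -0.04 to 0.04 in AA, -0.04 to 0.13 in AS, -0.05 to 0.12 in SA and -0.07 to 0.01 in SS, and the averaged AS sample and SA 4 gave the upper ends in AS and SA. Fibroblast markers ran from -0.04 to 0.02 in AA, -0.16 to 0.14 in AS, -0.05 to 0.06 in SA and -0.16 to -0.10 in SS. Smooth muscle and pericyte markers ran from -0.06 to 0.06, -0.12 to 0.20, 0.06 to 0.35 and 0.05 to 0.14 in the same order, and mesothelial markers from -0.04 to 0.04, -0.35 to -0.03, -0.13 to -0.07 and -0.21 to -0.13. Their part in the collagen values was not tested.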

How the data were processed

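There were 16 arrays of left lung, 1 per mouse per the labels. The authors deposited 1 table of normalised log2 values, 1 per probe set and array, and its unit was read from the values, which run from 2.40 to 15.11. How they were corrected for background, normalised and summarised is not given in the sources used here. Per the submitters' processing notes, limma was used. Differences are relative to that normalisation. Of 45101 probe sets, 64 controls were left out. Symbols came from the platform annotation: 34945 probe sets had 1 symbol, 932 several and 9160 none, and those with several or none were not named.

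Near-identical arrays were averaged, and limma 3.58.1 in R 4.3.3 was fitted to all 4 groups together (14 samples, 10 residual degrees of freedom, lmFit and eBayes). The Benjamini-Hochberg adjustment ran over 45037 probe sets, with 0.05 as the threshold, and no probe set was filtered for low values. The scripts were tested on simulated data. The titles call the replicates biological, and p-values measure only the spread between these samples. Comparisons with a group in common share its samples.

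Every collagen gene was counted. Those named are each gene past the threshold, the 3 largest differences each way in each comparison, 12 chains of the lung matrix and each Col1a2 probe set. Of the lists of other genes, those past the threshold or else the 2 largest are named. The members and lists were chosen with earlier results of these data known. Replicate numbers were not used to pair the samples. Over 24 pairs of the same number, deviations correlated between -0.157 and 0.251. Pairs of different numbers ran from -0.297 to 0.311. Whether the number pairs the samples was not tested. Alternatives were the treatment of near-identical arrays, normalisation, centring, array weights, moderation, a filter on dim probe sets, the replicate number as a block, the groups fitted, the probe set chosen and each sample left out.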

Additional observations from a re-analysis of the deposited data

Results flagged for a closer look

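Among 88 sets of 4 samples (44 probe sets in AA and in SA; groups of 3 were not tested), 4 had a lowest sample set apart from the other 3 by Dixon's test at 95%. Chance gives about 1 in 20. Col19a1 read 4.38 in AA 1, with the nearest AA sample at 4.81. Col26a1 read 4.06 in AA 2, with the nearest at 4.11. Col4a2 read 11.96 in AA 3, with the nearest at 12.08. Col9a3 read 6.26 in SA 2, with the nearest at 6.38.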

How the results depend on the processing

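The count of collagen genes past the threshold was small in each comparison and moved by a few genes. With all 16 arrays counted as separate samples it was 2 for AS minus AA, 1 for SS minus SA, 2 for SS minus AS, 5 for the adult SHS effect and 1 for the mean in-utero effect. With array weights it was 1, 1 and 0 for the first 3 of these, 1 for SS minus AA and 2 for the adult SHS effect. A further quantile normalisation, or centring on array medians, gave 1 for AS minus AA and 0 for SS minus AS. A filter at a mean of 5 gave 1 for AS minus AA, and trended robust moderation, or fitting the 2 groups alone, gave 0 for SS minus AS. Counting a gene where any probe set passed gave 1, 1 and 6 for AS minus AA, SS minus SA and the adult SHS effect. With 1 sample left out the counts ran from 0 to 1 for AS minus AA, 0 to 2 for SS minus AS, 1 to 2 for the adult SHS effect and 0 to 1 for the mean in-utero effect, and stayed at 0 elsewhere. Over all probe sets the same omissions moved the count passing by over 1.5 times: from 185 to 905 for AS minus AA, 171 to 1014 for SS minus SA, 136 to 507 for SS minus AS, 34 to 266 for SS minus AA, 23 to 115 for the interaction, 1032 to 3616 for the adult SHS effect and 32 to 279 for the mean in-utero effect. Of the 40 other probe sets, all 16 arrays gave 2 for AS minus AA and 1 for SS minus AS, quantile normalisation gave 3 for the adult SHS effect, and fitting the 2 groups alone gave 0 for AS minus AA; with 1 sample left out the ranges were 1 to 1, 0 to 1 and 1 to 5 for AS minus AA, SS minus SA and the adult SHS effect. The median over collagen genes for AS minus AA was -0.04 without the averaged AS sample. Without the 2 farthest samples, r was 0.729, 0.674, 0.604 and 0.487 where it no longer passed and 0.850 where it newly passed. Of single genes, 72 values lost and 33 gained the threshold under an alternative, and no called value changed sign. The cause of these moves was not tested.

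With the replicate number as a block, 0 collagen genes passed for SS minus AS and 1 for the adult SHS effect. The labels give these samples only a number in common. Same-numbered deviations correlated over 0.1 in 8 of 24 pairs, and 5 of 16 arrays correlated best with their own number. Without the same count for pairs of different numbers, these figures do not decide whether the number pairs the samples. Signal over background could not be judged, since no detection call was used.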
